A study of Homo sapiens with 12 samples.

Results

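The p53 target genes are genes that the transcription factor p53 is known to bind and switch on. A list of 42 of them was set by name, with earlier results of these data known, and every member is accounted for here. Of these, 40 had a probe that could be named, among 16922 genes with such a probe on the array, and 34 were bright enough to be tested, among 8783 genes tested. BTG2 and FDXR were not analysed here because no probe could be named for them. BBC3, PLK3, POLH, RPS27L and TNFRSF10C had a probe that was above background on 0 of 12 arrays, and EDA2R, a member of the TNF receptor family, was above background on 1 of 12, a SMIP004 array.

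RNA was measured in LNCaP-S14 cells, a subline of the human prostate cancer line LNCaP that stably overexpresses SKP2, the substrate receptor of a ubiquitin ligase. All 5 groups were this line, so the controls overexpressed SKP2 as well, and the labels themselves name only LNCaP. Cells received DMSO (the vehicle), 40 µM SMIP004, 50 nM bortezomib (BTZ, a proteasome inhibitor), 500 nM camptothecin (CPT, a topoisomerase I poison that breaks DNA) or 20 µM roscovitine (RVT, an inhibitor of cyclin-dependent kinases) for 24 h, with 2 samples per group. The design set SMIP004 beside compounds of known action, so the members were compared for each compound against DMSO, for CPT against BTZ, which were run on the same slide, and for SMIP004 against CPT.

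In unstressed cells p53 is kept low by MDM2, a ubiquitin ligase that marks it for the proteasome. Kinases activated by DNA damage, among them ATM, ATR and CHEK2, release p53 from MDM2, after which it raises genes for cell cycle arrest, DNA repair, apoptosis and its own inhibition. A few of its targets, among them TNFRSF10B, GADD45A and GDF15, are also raised by ATF4 or CHOP, transcription factors of the unfolded protein response.

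p53 binds DNA at response elements, each a pair of 10-base elements lying next to each other or a short spacer apart. Promoter windows from 250 bases before to 50 bases after each start site were taken from RefSeq (GRCh38.p14) and were found for 33 of the 42 members, at 48 start sites. The consensus of the p53 response element was searched, allowing a spacer of at most 1 base and at most 2 of 20 letters off. Since the consensus reads the same on both strands, this search covers both. Such a pair lay at 5 of the 48 start sites (10.4%), in 4 genes, against 1.34% of 35116 start sites of all genes. A single 10-base element with no letter off lay at 14.6% of the members' start sites and at 6.63% of all. The 4 genes with a pair are shown because they carry the element the list is named for, with the paired elements in capitals and, where the pair lies before the start site, up to 20 bases on each side. All 4 lie on the plus strand.
MDM2, chr12:68808903-68808962: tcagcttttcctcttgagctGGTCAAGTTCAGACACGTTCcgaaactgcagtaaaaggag
FAS, chr10:88991289-88991348: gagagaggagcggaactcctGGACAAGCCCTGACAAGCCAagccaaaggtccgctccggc
AEN, chr15:88621286-88621339: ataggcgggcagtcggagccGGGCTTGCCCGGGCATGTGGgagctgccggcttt
DDB2, chr11:47214979-47214999: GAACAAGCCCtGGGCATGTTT
The MDM2 pair begins 94 bases before one of its start sites and 101 before another, the FAS pair 122 before, and the AEN pair 34 before. DDB2 held the only pair with 0 letters off, beginning at base 6 after its start site with a 1-base spacer. No entry was given for TP53INP1, TNFRSF10A, TNFRSF10B, TNFRSF10C, TNFRSF10D, RRM2B, PHLDA3, GADD45A or FBXO22. A match is a description of these letters and not evidence of binding.

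Levels are background-corrected, quantile-normalized log2 intensities of 1 probe per gene, so they are set against other samples and not against other probes. A gene was called at a limma adjusted p (Benjamini-Hochberg over the 8783 genes) under 0.05, and errors are standard errors of that fit unless named SD. The 2 samples of a group differed by an SD over genes of 0.13 to 0.224 log2 units for DMSO, SMIP004, BTZ and CPT, but of 0.766 for RVT, where 1216 genes lay at least 2-fold apart. The RVT samples are therefore shown singly and stand outside the fit of the other 8 samples. The labels do not say that samples came from separate cultures, although the design text calls those of SMIP004 biological replicates, so p-values measure only the spread between these samples. Slide 1 carried DMSO and SMIP004, whereas slide 2 carried BTZ, CPT and RVT, so slide and compound cannot be told apart when any of the latter is set against DMSO, and raised and lowered name the direction of a group difference. The array compares shares of RNA, and fewer expressing cells and less RNA per cell cannot be told apart. Of the prostate luminal markers TMPRSS2, FOLH1, HOXB13 and KRT8 were above background on 12 arrays, KLK3 and KRT18 on 3 and KLK2 on 4, while the basal markers KRT5 and KRT14 and the leukocyte markers PTPRC and CD3E were on 0. Of the stromal and endothelial markers COL1A2, DCN and PECAM1 were above background on 0 arrays, COL1A1 on 8 and VWF on 12.

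All 34 p53 target genes tested were higher with CPT, and in each of them both CPT samples lay above both DMSO samples. The median change was 2.29 log2 units (4.88-fold), against 0.00 over all genes, and 32 members rose at least 2-fold. No all-gene share is given here for that separation of samples or for the 2-fold count, so neither is read as particular to the members. TP53I3, an oxidoreductase linked to reactive oxygen and apoptosis, rose 134-fold, the largest rise of the list, from a DMSO level that was above background on 1 of 2 arrays, and ZMAT3, an RNA-binding zinc finger protein, rose 1.22-fold, the smallest. BTZ raised 21 members and lowered 4, with a median change of 0.78 (1.71-fold), and SMIP004 raised 17 and lowered 6, with a median of 0.24 (1.18-fold). All-gene medians were -0.01 and -0.02.

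These counts are read against a background in which most of the array moved. With CPT, 38.2% of all genes were called higher and 38.4% lower, against 100% and 0% of the members. With BTZ, 38.5% of all genes were called higher and 39.3% lower, against 61.8% and 11.8% of the members. With SMIP004, 36.7% of all genes were called higher and 38.7% lower, against 50% and 17.6% of the members. The counts of smaller groups of genes that follow stand against the same shares of all genes. Only 25 members were above background on all 12 arrays, and FAS, PLK2, RRM2B and TP53I11 were kept only because CPT or RVT arrays detected them. Among those 25, CPT raised 25, BTZ raised 16 and lowered 2, and SMIP004 raised 13 and lowered 4. Under median scaling in place of quantile normalization the median of all genes moved to -0.30 with CPT and to -0.23 with BTZ, and the share of called genes that rose fell from 49.9% to 34.8% and from 49.5% to 38.6%. Members called higher were then 32 with CPT, 21 with BTZ and 14 with SMIP004. When the RVT samples, with their wide spread, were added to the fit, SMIP004 raised only 7 members and lowered 2 (PLK2 and PERP). The 7 were TNFRSF10B, GDF15, XPC, AEN, GADD45A, FBXO22 and SPATA18. CPT still raised 33 members and BTZ 18. The all-gene shares of that fit are not given here for these compounds, so the smaller counts are not read as a trait of the members.

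**Figure D1:**
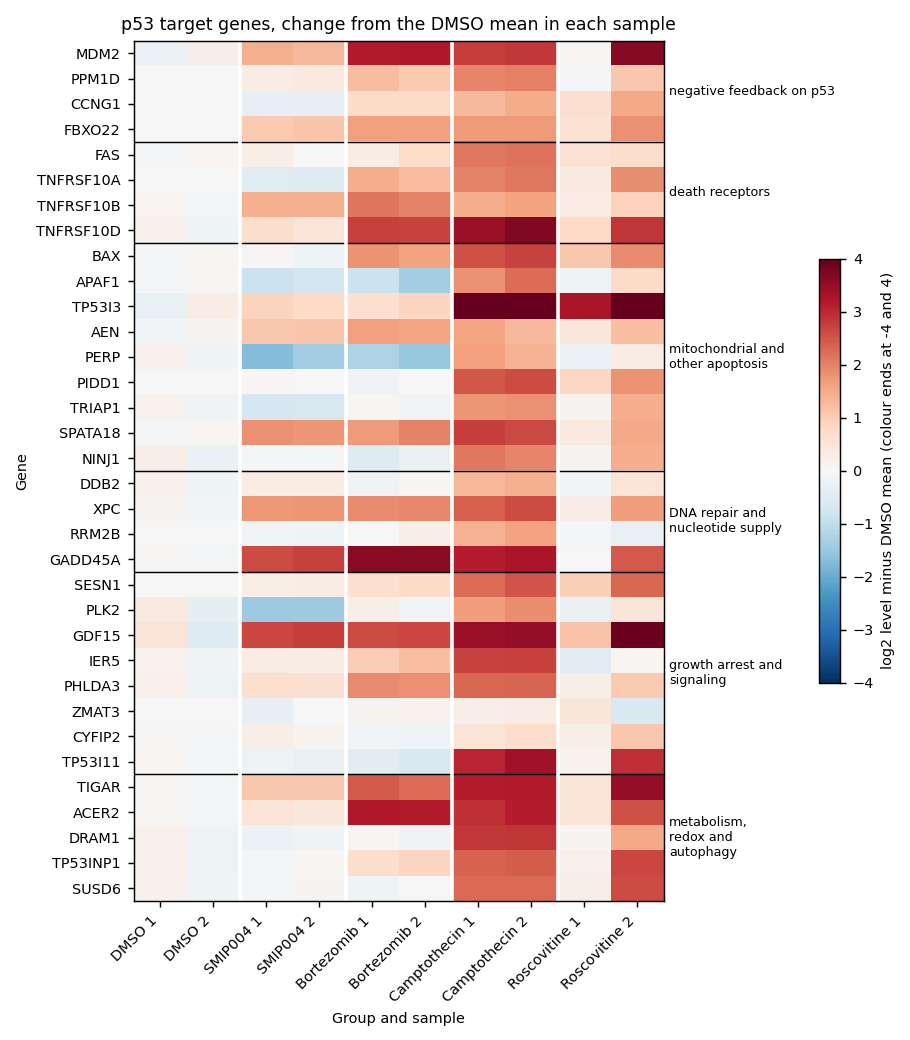
Change of the 34 tested p53 target genes (rows, by role) from the DMSO mean in each of 10 samples (columns), in log2 units of the normalized intensity, with red above and blue below the DMSO mean. The CPT columns are above the DMSO mean in every row, the SMIP004 and BTZ columns hold both directions, and the 2 RVT samples differ from each other.

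Across SMIP004, BTZ and CPT, 16 members rose with all 3 compounds, namely TP53I3, MDM2, TNFRSF10B, TNFRSF10D, GDF15, SESN1, XPC, PPM1D, TIGAR, AEN, PHLDA3, GADD45A, ACER2, FBXO22, IER5 and SPATA18. They made up 47.1% of the members, against 14.2% of all genes, and they include TNFRSF10D, which was below background with both DMSO and SMIP004. The 3 comparisons share the DMSO samples, so these are not independent sets. ZMAT3, RRM2B, SUSD6, CYFIP2, DRAM1 and PIDD1 were called with CPT alone. PERP and APAF1 fell with both SMIP004 and BTZ and rose with CPT. TNFRSF10A and CCNG1 fell with SMIP004 and rose with BTZ and CPT, PLK2 and TRIAP1 fell with SMIP004 and rose with CPT, and TP53I11 and NINJ1 fell with BTZ and rose with CPT. TP53INP1, BAX and FAS rose with BTZ and CPT, and DDB2 with SMIP004 and CPT. The highest group mean outside RVT was that of CPT in 29 members and that of BTZ in MDM2, TNFRSF10B, AEN, GADD45A and ACER2. Among the 29 are FAS, PLK2, RRM2B and TP53I11, which were kept only because CPT or RVT arrays detected them. No all-gene share is given here for the highest group, so this count is not read as particular to the members.

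**Figure D2:**
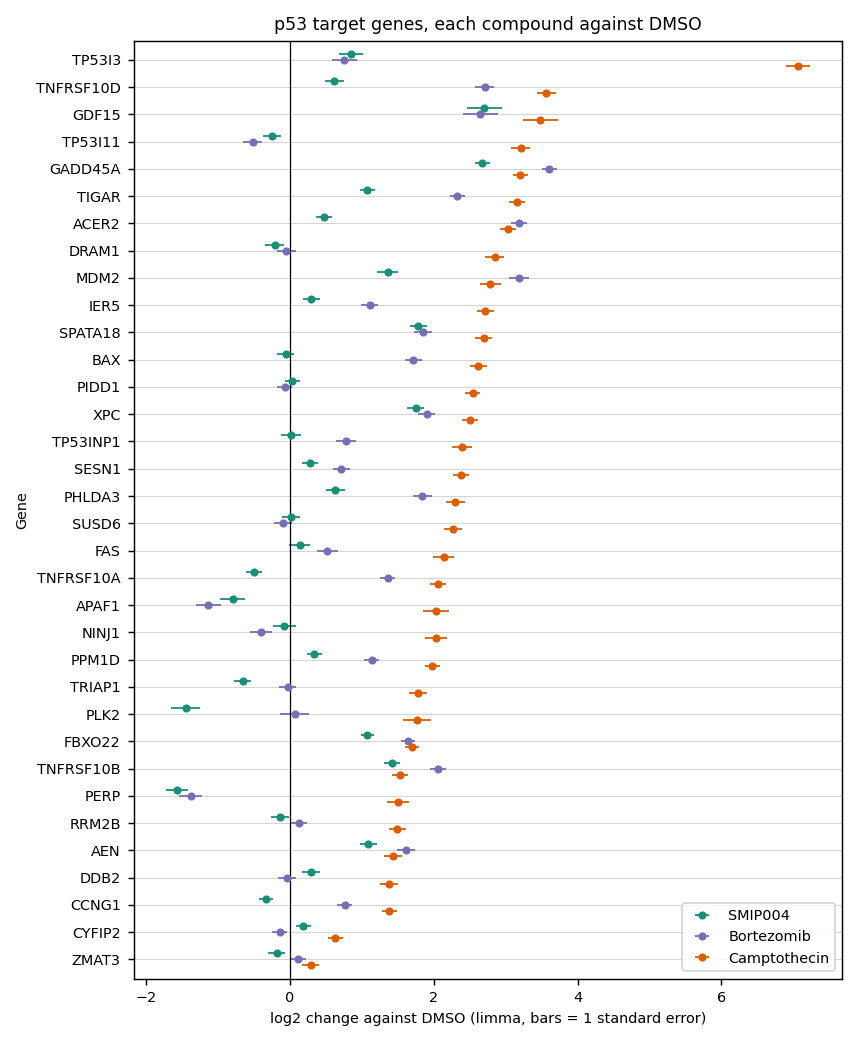
log2 change against DMSO (horizontal axis) of each tested p53 target gene (rows, ordered by the CPT change), fitted by limma with bars of 1 standard error, for SMIP004, BTZ and CPT. Every CPT point lies right of 0, from 0.29 for ZMAT3 to 7.07 for TP53I3, while SMIP004 points reach from -1.57 to 2.71 and BTZ points from -1.38 to 3.60.

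Among the members, the negative regulators of p53 itself rose with CPT and BTZ in 4 of 4 tested, and with SMIP004 in 3 of 4. Other ubiquitin ligases of p53, such as HUWE1 below, are not on the list and are not counted here. MDM2, whose promoter pair is printed above, read 6.08 and 6.55 in the DMSO samples, below background on both arrays. It read 7.73 and 7.61 with SMIP004, 9.47 and 9.52 with BTZ, and 9.08 and 9.13 with CPT. The groups did not overlap, and BTZ stood highest. For a gene not above background in 1 group, the fold is given as a bound, the bright group's mean over the lowest signal that counted as above background or the dim probe's own level if higher, per array. MDM2 was at least 2.31-fold higher with SMIP004 (adjusted p = 3.36e-06), at least 8.19-fold with BTZ (2.79e-09) and at least 6.23-fold with CPT (5.8e-09).

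PPM1D, the phosphatase that removes activating phosphates from p53 and its kinases, read 9.07 and 9.09 with DMSO, 9.37 and 9.47 with SMIP004, 10.32 and 10.13 with BTZ and 11.04 and 11.09 with CPT. FBXO22, a ubiquitin ligase subunit that acts on p53 with the demethylase KDM4A, read 9.22 and 9.20 with DMSO, 10.25 and 10.33 with SMIP004, 10.85 and 10.86 with BTZ and 10.91 and 10.91 with CPT. PPM1D thus rose by 1.27-, 2.20- and 3.95-fold. FBXO22 rose 2.11-fold with SMIP004, 3.12-fold with BTZ and 3.25-fold with CPT, and CPT against BTZ was not called (0.06 ± 0.10). A dimmer second FBXO22 probe rose with BTZ (1.40) and CPT (1.24) but changed by -0.23 log2 units with SMIP004 (limma adjusted p = 0.0936). The SMIP004 rise of FBXO22 therefore rests on 1 of its probes. CCNG1, cyclin G1, which recruits a phosphatase to MDM2, read 10.86 and 10.90 with DMSO, 10.54 and 10.56 with SMIP004, 11.65 and 11.64 with BTZ and 12.17 and 12.35 with CPT. It was 1.26-fold lower with SMIP004 (adjusted p = 0.0122), a call lost without DMSO sample 2 or either SMIP004 sample, and 1.70- and 2.61-fold higher with BTZ and CPT.

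The death receptors of the cell surface, counted with the decoy receptor TNFRSF10D, rose in 4 of 4 members tested with CPT and BTZ. With SMIP004, TNFRSF10B was the only receptor above background that rose. TNFRSF10B, a receptor for the ligand TRAIL, was bright throughout, at 10.95 and 10.78 with DMSO, 12.28 and 12.29 with SMIP004, 13.00 and 12.86 with BTZ and 12.31 and 12.49 with CPT. TNFRSF10A, the other TRAIL receptor that signals death, read 7.47 and 7.50 with DMSO, 7.01 and 6.96 with SMIP004, 8.95 and 8.74 with BTZ and 9.48 and 9.60 with CPT. The pair of TRAIL receptors therefore moved in opposite directions with SMIP004, TNFRSF10B 2.67-fold higher (log2 change 1.42 ± 0.11, limma adjusted p = 3.16e-07) and TNFRSF10A 1.41-fold lower (-0.50 ± 0.11, adjusted p = 0.0012). With BTZ they rose 4.18- and 2.57-fold, and with CPT 2.89- and 4.16-fold. A second TNFRSF10B probe, above background on all 12 arrays, rose by 1.28, 2.56 and 1.02 log2 units with SMIP004, BTZ and CPT, and the third probe was below background on every DMSO and SMIP004 array.

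TNFRSF10D, a decoy receptor that binds TRAIL without a complete death domain, read 5.30 and 4.99 with DMSO and 5.85 and 5.68 with SMIP004, all below background. It read 7.87 and 7.84 with BTZ and 8.60 and 8.83 with CPT, at least 2.62- and 4.76-fold above DMSO. Its SMIP004 call (log2 change 0.62) lies between groups that are both below background. FAS, the receptor of FAS ligand, was above background only with CPT, at 7.33 and 7.36 against 5.11 and 5.29 with DMSO. It was at least 1.84-fold higher with CPT (adjusted p = 7.72e-08), while its BTZ levels of 5.51 and 5.94 and SMIP004 levels of 5.47 and 5.21 stayed below background. The BTZ call of FAS was lost without DMSO sample 1 and without BTZ sample 2.

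**Figure D3:**
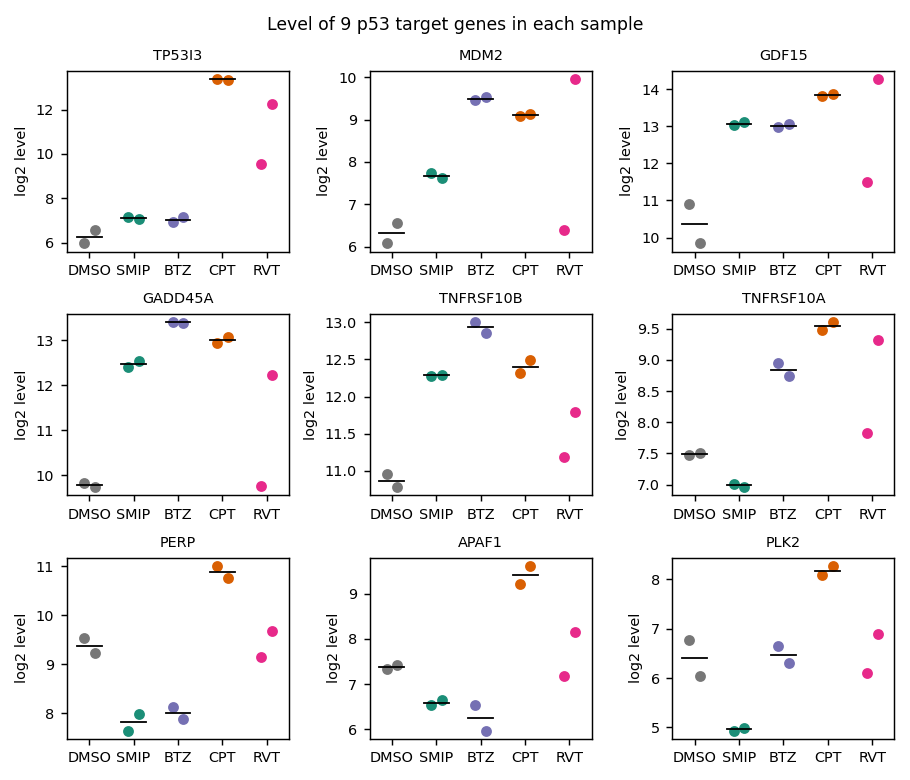
Normalized log2 level (vertical axis, own scale in each panel, not starting at 0) of 9 p53 target genes in each sample, by group: DMSO, SMIP004 (SMIP), bortezomib (BTZ), camptothecin (CPT) and roscovitine (RVT). Points are samples and lines the mean of 2 samples, omitted for RVT. TNFRSF10A, PERP, APAF1 and PLK2 lie below DMSO with SMIP004 and above it with CPT, and MDM2, GADD45A and TNFRSF10B are highest with BTZ among the groups with a mean.

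Among the other apoptosis genes, CPT raised 9 of 9 tested, BTZ raised 4 and lowered 3, and SMIP004 raised 3 and lowered 3. The SMIP004 shares (33.3% in each direction) and the BTZ shares (44.4% and 33.3%) lay near those of all genes. TP53I3 read 5.98 and 6.59 with DMSO, 7.18 and 7.09 with SMIP004, 6.94 and 7.15 with BTZ and 13.38 and 13.32 with CPT. It was 1.80-fold higher with SMIP004 and 1.70-fold higher with BTZ, and above background on 1 DMSO array. Its second probe was above background on the 2 CPT arrays and on 0 arrays of the other groups, at 6.58 and 6.83 with CPT against 5.62 and 5.80 with DMSO. BAX, which opens pores in the mitochondrial outer membrane, read 8.39 and 8.52 with DMSO, 8.50 and 8.29 with SMIP004, 10.27 and 10.07 with BTZ and 10.99 and 11.16 with CPT. It was 3.29-fold higher with BTZ and 6.16-fold with CPT, and its SMIP004 change was -0.06 ± 0.12 (adjusted p = 0.676, 95% interval -0.32 to 0.21), with overlapping samples.

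PERP, a membrane protein of desmosomes that can promote apoptosis, read 9.54 and 9.22 with DMSO, 7.64 and 7.98 with SMIP004, 8.13 and 7.87 with BTZ and 11.00 and 10.76 with CPT. APAF1, the scaffold of the apoptosome, read 7.33 and 7.43 with DMSO, 6.53 and 6.64 with SMIP004, 6.53 and 5.97 with BTZ and 9.21 and 9.62 with CPT. For both genes the SMIP004 and BTZ samples lay below, and the CPT samples above, every DMSO sample. PERP was 2.96-fold lower with SMIP004 (log2 change -1.57 ± 0.15, adjusted p = 2.22e-06), 2.60-fold lower with BTZ (-1.38 ± 0.15, 5.57e-06) and 2.84-fold higher with CPT (1.50 ± 0.15, 2.81e-06). APAF1 was 1.73-fold lower with SMIP004, at least 1.46-fold lower with BTZ, where it fell below background, and 4.10-fold higher with CPT.

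TRIAP1, a small mitochondrial protein that restrains apoptosis, read 9.91 and 9.62 with DMSO, 9.09 and 9.13 with SMIP004, 9.82 and 9.65 with BTZ and 11.52 and 11.58 with CPT. It was 1.57-fold lower with SMIP004 and 3.44-fold higher with CPT, and its BTZ change of -0.03 ± 0.12 was not called. NINJ1, which acts in rupture of the plasma membrane of dying cells, read 11.15 and 10.62 with DMSO, 10.82 and 10.80 with SMIP004, 10.38 and 10.59 with BTZ and 13.01 and 12.83 with CPT. Its rise with CPT was 4.09-fold, whereas its fall with BTZ (1.32-fold, adjusted p = 0.0356) was lost without DMSO sample 1, BTZ sample 1 or either SMIP004 sample. PIDD1, a death domain protein that activates caspase-2 and NF-kappaB, rose 5.83-fold with CPT, and its changes of 0.04 with SMIP004 and -0.07 with BTZ were not called.

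AEN, an apoptosis-enhancing nuclease, read 10.48 and 10.72 with DMSO, 11.69 and 11.70 with SMIP004, 12.26 and 12.17 with BTZ and 12.17 and 11.90 with CPT. SPATA18, a protein of mitochondrial quality control, read 7.62 and 7.75 with DMSO, 9.50 and 9.44 with SMIP004, 9.39 and 9.69 with BTZ and 10.44 and 10.32 with CPT. AEN rose 2.13-, 3.06- and 2.70-fold and SPATA18 3.45-, 3.61- and 6.47-fold with SMIP004, BTZ and CPT, with adjusted p of 5.89e-06 or less in every case. SPATA18 was the third largest SMIP004 rise of the list.

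Of the DNA repair and nucleotide supply genes, CPT raised 4 of 4 tested, SMIP004 3 and BTZ 2. GADD45A, which binds PCNA and stress kinases and acts in arrest and repair, read 9.83 and 9.74 with DMSO, 12.40 and 12.53 with SMIP004, 13.39 and 13.39 with BTZ and 12.93 and 13.06 with CPT. XPC, the damage sensor of nucleotide excision repair, read 9.98 and 9.78 with DMSO, 11.60 and 11.65 with SMIP004, 11.75 and 11.81 with BTZ and 12.27 and 12.50 with CPT. GADD45A rose 6.40-fold with SMIP004, 12.2-fold with BTZ, its largest rise and that of the list with BTZ, and 9.24-fold with CPT, while XPC rose 3.36-, 3.74- and 5.67-fold.

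DDB2, another damage sensor of nucleotide excision repair and the holder of the exact pair of elements, read 7.15 and 6.83 with DMSO, 7.29 and 7.30 with SMIP004, 6.85 and 7.05 with BTZ and 8.34 and 8.42 with CPT. It rose 2.61-fold with CPT. Its SMIP004 call (1.23-fold, adjusted p = 0.0452) was lost without DMSO sample 2 or either SMIP004 sample. RRM2B, the ribonucleotide reductase subunit that supplies nucleotides for repair, read 6.53 and 6.53 with DMSO, 6.43 and 6.36 with SMIP004, 6.51 and 6.79 with BTZ and 7.92 and 8.13 with CPT. It was 2.82-fold higher with CPT, and not called with SMIP004 or BTZ, from a DMSO level above background on 1 of 2 arrays.

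Of the growth arrest and signaling genes, CPT raised 8 of 8 tested, and both BTZ and SMIP004 raised 4 and lowered 1. GDF15, a secreted cytokine of the TGF-beta family, read 10.89 and 9.84 with DMSO, 13.02 and 13.12 with SMIP004, 12.97 and 13.05 with BTZ and 13.83 and 13.88 with CPT. It was the largest SMIP004 rise of the list, at 6.53-fold (2.71 ± 0.24, adjusted p = 9.67e-07), and rose 6.26-fold with BTZ and 11.2-fold with CPT. Its DMSO samples lay more than 2-fold apart, the only member to do so within DMSO, SMIP004, BTZ or CPT, and both lay below every treated sample of those groups. SESN1, a sestrin that restrains mTORC1, read 9.66 and 9.64 with DMSO, 9.93 and 9.94 with SMIP004, 10.32 and 10.41 with BTZ and 11.89 and 12.17 with CPT. SESN1 rose 1.64-fold with BTZ and 5.22-fold with CPT, and its 1.22-fold SMIP004 call (adjusted p = 0.0378) was lost when any 1 of the DMSO or SMIP004 samples was left out.

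PHLDA3, which competes with the kinase AKT for membrane lipids, read 9.03 and 8.61 with DMSO, 9.46 and 9.44 with SMIP004, 10.70 and 10.63 with BTZ and 11.10 and 11.15 with CPT, rises of 1.55-, 3.59- and 4.94-fold. IER5, an immediate early gene product, read 7.27 and 6.97 with DMSO, 7.41 and 7.42 with SMIP004, 8.14 and 8.32 with BTZ and 9.82 and 9.85 with CPT. IER5 rose 2.16-fold with BTZ and 6.59-fold with CPT, and its SMIP004 call (1.23-fold, adjusted p = 0.0394) was lost without DMSO sample 2 or either SMIP004 sample. The SMIP004 call of PPM1D was likewise lost without SMIP004 sample 2.

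PLK2, a polo-like kinase of centriole duplication and stress, read 6.78 and 6.04 with DMSO, 4.94 and 4.98 with SMIP004, 6.65 and 6.30 with BTZ and 8.08 and 8.27 with CPT. It was above background on 1 DMSO array and 0 SMIP004 arrays, so its SMIP004 fall (-1.45 ± 0.20, adjusted p = 3.91e-05) has no fold that can be bounded above 1. TP53I11, a membrane protein, read 5.96 and 5.78 with DMSO, 5.68 and 5.57 with SMIP004, 5.44 and 5.28 with BTZ and 8.91 and 9.25 with CPT. It was above background only in the CPT samples and RVT sample 2, at least 6.13-fold higher with CPT than with DMSO, and its BTZ call lay between groups that were both below background. CYFIP2, a subunit of the WAVE actin complex, rose 1.55-fold with CPT on its brighter probe, a call lost under median scaling (0.26, limma adjusted p = 0.113), while its second probe changed by 0.10 with CPT and by -1.06 with BTZ. ZMAT3 read 9.88 and 9.88 with DMSO and 10.16 and 10.19 with CPT. Its CPT call (adjusted p = 0.0369) was lost on leaving out any 1 of these 4 samples, and under median scaling its change was -0.08.

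Of the metabolism, redox and autophagy genes, CPT raised 5 of 5 tested, BTZ 3 and SMIP004 2. TIGAR, a phosphatase that lowers glycolytic flux, read 8.42 and 8.34 with DMSO, 9.46 and 9.45 with SMIP004, 10.82 and 10.60 with BTZ and 11.53 and 11.54 with CPT, rises of 2.11-, 5.03- and 8.92-fold. ACER2, a ceramidase of the Golgi, read 6.15 and 6.03 with DMSO, below background, then 6.65 and 6.50 with SMIP004, 9.28 and 9.27 with BTZ and 9.01 and 9.24 with CPT. ACER2 was at least 1.08-fold higher with SMIP004, at least 7.03-fold with BTZ and at least 6.33-fold with CPT. DRAM1, a lysosomal membrane protein of autophagy, rose 7.21-fold and SUSD6, a membrane protein, 4.82-fold with CPT, while their changes with SMIP004 and BTZ lay between -0.21 and 0.02 and were not called. TP53INP1, which links p53 to autophagy and stress, read 9.00 and 8.57 with DMSO, 8.74 and 8.87 with SMIP004, 9.49 and 9.66 with BTZ and 11.16 and 11.20 with CPT. It rose 1.72-fold with BTZ and 5.25-fold with CPT.

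CPT and BTZ shared slide 2, so slide does not enter their contrast. CPT was higher than BTZ in 27 of 34 members, lower in 3 and not called in 4, with a median difference of 0.88 log2 units (1.84-fold), against 39.8% of all genes higher, 39.7% lower and an all-gene median of -0.01. FAS, PLK2, RRM2B and TP53I11, kept only because CPT or RVT arrays detected them, are among the 27. Among the 25 members above background on all 12 arrays, CPT was higher than BTZ in 20 and lower in 2. The differences between CPT and BTZ reached 6.30 ± 0.17 for TP53I3 (79.0-fold). DRAM1 was 7.46-fold, PERP 7.38-fold, PIDD1 6.13-fold, NINJ1 5.40-fold and SUSD6 5.14-fold higher with CPT, and APAF1 and TP53I11 at least 5.99- and 4.76-fold. The 3 members that BTZ raised further than CPT were TNFRSF10B (1.45-fold, adjusted p = 0.000879), GADD45A (1.32-fold, 0.0039) and MDM2 (1.31-fold, 0.0222, lost without CPT sample 1 or either BTZ sample). AEN, ACER2, FBXO22 and ZMAT3 differed by -0.18 to 0.18 log2 units and were not called.

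SMIP004 was lower than CPT in 33 of 34 members and higher in 0, with a median difference of -2.09 log2 units, against 40.8% of all genes lower and 39.2% higher. These groups lay on different slides. Among the 25 members above background on all 12 arrays, SMIP004 was lower than CPT in 24 and higher in 0. TNFRSF10B was the member not called, at -0.11 ± 0.11 (adjusted p = 0.359), with a 95% interval of -0.36 to 0.13 log2 units. TP53I3 was 74.4-fold lower with SMIP004, PERP 8.41-fold, DRAM1 8.34-fold, APAF1 7.09-fold, BAX 6.41-fold and TNFRSF10A 5.89-fold. TP53I11, below background with SMIP004, was at least 6.34-fold lower. Among called members the gap was under 2-fold for AEN (1.27-fold), CYFIP2 (1.36-fold), ZMAT3 (1.39-fold), GADD45A (1.44-fold), FBXO22 (1.54-fold), XPC (1.69-fold), GDF15 (1.71-fold) and SPATA18 (1.88-fold). Under median scaling the all-gene median moved from -0.02 to 0.25 and the share of called genes higher with SMIP004 from 49% to 61.3%. AEN then stood at 0.04, not called, and 28 members were lower. The AEN call was also lost without CPT sample 1 or either SMIP004 sample, and those of GDF15 and ZMAT3 without SMIP004 sample 1.

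The RVT samples disagreed on the p53 target genes, as they did across the array. Sample 1 held 3 members at least 2-fold above the DMSO mean, TP53I3 (9.71-fold), GDF15 (2.20-fold) and BAX (2.10-fold), and 0 as far below, with a median of 0.28 log2 units. Sample 2 held 25 at least 2-fold above and 0 below, with a median of 1.51. Over all genes 0.729% lay at least 2-fold above and 1.18% below the DMSO mean in sample 1, and 8.37% above and 9.54% below in sample 2. No test was made of single samples.

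TP53I3 read 9.56 and 12.24, MDM2 6.39 and 9.96, and GDF15 11.50 and 14.28 in RVT samples 1 and 2. GADD45A read 9.76 and 12.23, TIGAR 8.88 and 11.88, and TP53I11 6.01 and 8.80. In sample 2 these 6 genes stood 2.44 to 5.96 log2 units above the DMSO mean, while in sample 1 MDM2, GADD45A and TP53I11 stayed within 0.14 log2 units of it. Sample 2 lay above sample 1 in 32 of 34 members, all but ZMAT3 and RRM2B. The 2 samples lay at least 2-fold apart, either way, in 20 of 34 members and in 1216 of 8783 genes. Sample 2 exceeded the CPT mean in MDM2, TP53INP1, GDF15, CCNG1, TIGAR, SUSD6, CYFIP2 and FBXO22, 8 of 34. No all-gene share is given here for sample 2 above sample 1 or above the CPT mean. Neither count is therefore read as particular to the members. IER5 stood apart, at 6.71 and 7.18 with RVT against a CPT mean 2.65 log2 units above sample 2. When both samples entered a limma fit of all 10 samples, 5 members were called higher with RVT (TP53I3, BAX, SESN1, CCNG1 and PIDD1) and 0 lower. Over all genes, 3.48% were called higher and 4.19% lower in that fit. In it 19 members had an unadjusted p under 0.05, a threshold for which no all-gene share is given here.

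**Figure D4:**
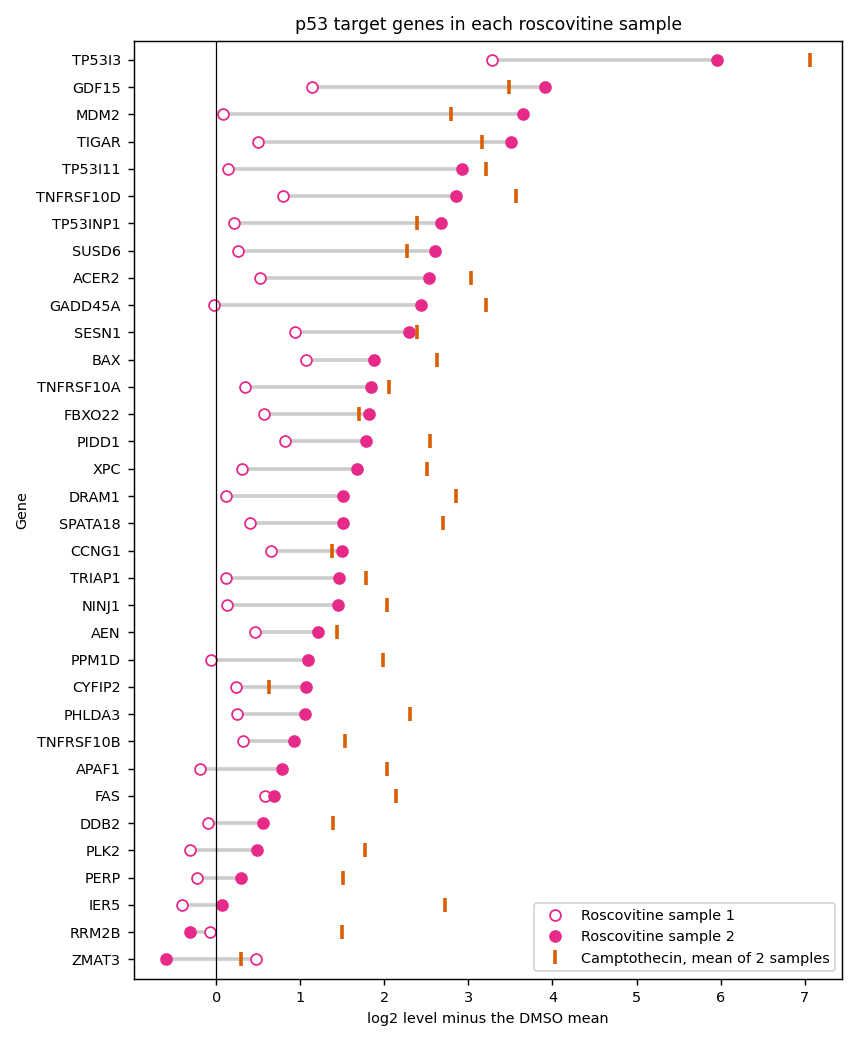
Level of each tested p53 target gene (rows) minus the DMSO mean, in log2 units (horizontal axis), in RVT sample 1 (open points) and sample 2 (filled points), with the mean of the 2 CPT samples as vertical ticks. Sample 2 lies right of sample 1 in 32 of 34 rows and right of the CPT tick in 8, with no all-gene share given for either count.

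Of the listed genes that act upstream of these targets, 19 were tested. CPT raised 6 and lowered 10, BTZ raised 12 and lowered 3, and SMIP004 raised 7 and lowered 6, with medians of -0.29, 0.47 and 0.13 log2 units. The SMIP004 shares of 36.8% higher and 31.6% lower lay near those of all genes, as did the CPT share of 31.6% higher. PRKDC, the catalytic subunit of DNA-dependent protein kinase, fell by 3.25 with CPT, by 1.50 with SMIP004 and by 1.34 with BTZ. CHEK2, a checkpoint kinase that phosphorylates p53, fell by 2.38 with BTZ, by 1.75 with CPT and by 0.84 with SMIP004. HUWE1, a ubiquitin ligase of p53, was at least 3.25-fold lower with CPT, rose by 1.15 with BTZ and was not called with SMIP004. TP53BP2, which steers p53 towards apoptosis genes, rose by 1.36 with SMIP004, by 2.15 with BTZ and by 1.32 with CPT. TP53BP1, an adaptor at DNA breaks, rose by 1.67 with BTZ and by 0.97 with SMIP004, and was not called with CPT. ATM was at least 1.90-fold higher with SMIP004 and 2.15-fold with BTZ, and its CPT call (-0.47) lay between groups both below background.

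GADD45A, GDF15 and TNFRSF10B, the tested members that ATF4 or CHOP also raise, were among the 5 largest SMIP004 rises of the list. They rose in 3 of 3 cases with SMIP004 (median 2.68), BTZ (2.65) and CPT (3.21). Of 15 other ATF4 and CHOP targets outside the list, SMIP004 raised 15 and lowered 0 (median 2.49), BTZ raised 10 and lowered 2 (1.33) and CPT raised 8 and lowered 6 (0.55). DDIT3, which encodes CHOP, rose by 5.77 ± 0.11 log2 units with SMIP004, ATF3 by 4.43 ± 0.11 and PPP1R15A, a regulator of the eIF2α phosphatase, by 3.89 ± 0.10. These genes also rose with BTZ, by 5.11, 5.29 and 5.56 in that order, and with CPT, by 4.02, 3.80 and 4.35. The part of ATF4 or CHOP in the members' changes was not tested.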

How the data were processed

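RNA of 10 samples (2 in each of 5 groups) was measured on 12 Illumina bead arrays of 24526 probes, with 2 technical arrays averaged for each SMIP004 sample. Samples were grouped by their labels, and the study's text supplied the LNCaP-S14 line and the time of the other compounds. The authors deposited 1 intensity per probe and array from the scanner software, not normalized and without background subtraction, together with a detection p-value computed by that software. A table of log2 values that the authors deposited after quantile normalization served as an alternative.

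Intensities were background-corrected from the detection p-values and quantile-normalized with an offset of 16 (neqc, limma 3.58.1, R 4.3.3). Mean intensity per array was 473 to 802, with 8737 to 9909 probes at a detection p under 0.01, and precision is limited by how few arrays there were. A probe was kept where all arrays of 1 or more groups had a detection p below 0.01 (11111 probes), and 2692 probes that could not be assigned to 1 gene were left out. Of the gene identifiers of the platform annotation, 99.9% matched the RefSeq gene table. The brightest kept probe stood for a gene (1141 genes had several). Models with 1 mean per group were fitted to 8 samples with lmFit and eBayes (4 residual and 7.3 prior degrees of freedom), 5 contrasts were tested and p-values were adjusted over all 8783 genes. The scripts were tested on simulated data. Each tested member was described, with single-sample values for those called with all 3 compounds, those of opposing direction and the largest changes of each contrast, and other genes were named only among the 3 largest called changes of their list. Members and lists were chosen with earlier results of these data known. The alternatives were another normalization, the deposited log2 values, an offset of 50, other filters, single technical arrays, other sets of samples, the mean of the probes, a 2-fold threshold at an unadjusted p of 0.05, each sample left out in turn and a replicate block.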

Additional observations from a re-analysis of the deposited data

How the results depend on the processing

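The members' 145 called changes were each checked under every setting. Over the settings other than leaving out a sample, 1594 of these checks kept direction and call, 105 lost the call and 2 reversed, both under median scaling: ZMAT3 with CPT against DMSO (-0.0787) and AEN with SMIP004 against CPT (0.0411). Leaving out each of 8 samples in turn, 1128 checks kept both and 32 lost the call, with the lone sample of a group assumed to vary like the other groups. Members called then ranged from 13 to 17 higher and 5 to 7 lower with SMIP004, 20 to 21 and 3 to 4 with BTZ, 33 to 34 and 0 with CPT, 27 and 2 to 3 for CPT against BTZ, and 0 and 30 to 33 for SMIP004 against CPT.

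The following counts moved by over 1.5 times. Median scaling gave 7 members lower with BTZ, adding SUSD6, CYFIP2 and PIDD1. Without a detection filter 40 members were tested, RPS27L was called lower with CPT (1 member) and EDA2R higher with SMIP004 than with CPT (1 member), both dim probes. With probes detected on every array, 2 were lower with BTZ. With all 10 samples in the fit, SMIP004 had 7 higher and 2 lower, BTZ 2 lower, CPT against BTZ 1 lower (TNFRSF10B), and RVT 5 higher. At 2-fold and an unadjusted p of 0.05, SMIP004 had 9 higher and 2 lower, BTZ 2 lower and CPT against BTZ 16 higher and 0 lower. Against the mean of BTZ and CPT on their own slide, RVT sample 1 had 0 members at least 2-fold higher and sample 2 had 4 (TP53I3, TP53INP1, TP53I11 and SUSD6). Other members lay at least 2-fold below that mean, among them GADD45A (-3.43) and MDM2 (-2.91) in sample 1 and IER5 (-1.85) in sample 2. The number of lower members and the all-gene shares are not given here. The cause of the shifts in counts was not tested, beyond the fewer members tested under the stricter filter and the wide spread of the RVT samples.

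Samples that share a replicate number did not deviate together (correlations of -0.187 to 0.00689). With the replicate block, 15 members were higher and 6 lower with SMIP004 (DDB2 and IER5 lost), 21 and 4 with BTZ, 34 and 0 with CPT, 27 and 3 for CPT against BTZ and 0 and 33 for SMIP004 against CPT.

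Dim members limit the list. With members below background in 1 group set at their bound, or at 0 where no bound could be given, the median change was 0.07 with SMIP004, 0.78 with BTZ and 2.26 with CPT.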

Other observations

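The technical arrays of a SMIP004 sample differed by at most 0.55 log2 units over the 34 tested p53 target genes. Of the 6 members with a probe that was not kept, BBC3, which encodes the apoptosis inducer PUMA, read 4.72 and 4.77 with DMSO and 5.61 and 5.39 with CPT, and EDA2R read 5.52 and 5.20 with DMSO and 6.24 and 6.44 with SMIP004. All of these BBC3 values lay below background, as did EDA2R apart from 1 SMIP004 array, so neither supports a fold.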
